A study of Mus musculus with 3 samples.

Results

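Osteopontin (Spp1), thrombospondin 1 (Thbs1) and fibronectin (Fn1) were followed together with their cell-surface receptors Cd44, Cd47, integrin alpha v (Itgav) and integrin beta 1 (Itgb1) in immune cells of the mouse infrarenal aorta. These 7 of the 32285 genes in the count tables were chosen by name, on the basis of values measured in these same libraries, so their levels are given as descriptions and no test is attached to them. All 7 symbols were found. Osteopontin, thrombospondin 1 and fibronectin are secreted proteins of the wound matrix. Integrin alpha v beta 1 and related integrins bind the short RGD motif of osteopontin and fibronectin, CD44 is the hyaluronan receptor that also binds osteopontin, and CD47 binds thrombospondin 1 and, on neighbouring phagocytes, the inhibitory receptor SIRP alpha. Activated macrophages of injured vessel walls are known for making osteopontin and fibronectin, and thrombospondin 1 is best known from platelet granules and stressed vessel-wall cells.

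The cells came from wild-type mice in 3 libraries. AAA_14 aortas were induced with elastase, the enzyme that degrades elastic fibres and so starts an abdominal aortic aneurysm (AAA). AAA_7 is titled as an aneurysm but carries a PBS treatment label, which leaves its treatment in doubt, and AAA_7 below means the library of that title. Sham aortas received phosphate-buffered saline (PBS). The unit of 7 and 14 is not given. Aortas were digested and CD45-positive cells were enriched with magnetic beads. Aortas were pooled before sequencing, 20 from the aneurysm arm (AAA_14) and 50 from the control arm (Sham), and the number for AAA_7 is not known. Each group is thus 1 library. No difference below therefore has a replicate check, no p-value is given, and every interval covers counting error only.

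After the filters, 5286 cells of AAA_14, 3229 of AAA_7 and 1235 of Sham remained, with medians of 6967.5, 2581 and 3659 UMIs (unique molecular identifiers, the molecules counted). The limit of 10% mitochondrial UMIs did most of the filtering and removed 47.7% of AAA_14, 7.64% of AAA_7 and 67.4% of Sham barcodes, together with the minimum of 200 detected genes. Kept libraries shared few cell barcodes, which were 8 between AAA_14 and AAA_7, 3 between AAA_14 and Sham and 1 between AAA_7 and Sham. Cells were classed from marker UMIs, and class names stand for cells that look like that class by those markers. Phagocytes, the macrophages and monocytes, numbered 1151 in AAA_14, 971 in AAA_7 and 11 in Sham, so that they could be compared between AAA_14 and AAA_7 only. Neutrophils numbered 788, 699 and 109, T cells 950, 514 and 445, and B cells 1349, 469 and 451. Natural killer (NK) cells numbered 89, 163 and 78, and dendritic cells 267, 65 and 19. Levels are CPM, counts per 1000000 UMIs of the class total, given with exact Poisson 95% intervals. Differences are given as log2 of the CPM ratio after 0.5 was added to both UMI sums, and classes with fewer than 50 cells in a library were not compared.

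The genes lie on 5 chromosomes of the mouse genome build GRCm38. Spp1 spans chr5:104435118-104441050 (plus strand), Thbs1 chr2:118111876-118127133 (plus strand) and Fn1 chr1:71585520-71653200 (minus strand). Cd44 lies at chr2:102811141-102901665 (minus strand), Cd47 at chr16:49800533-49915010 (plus strand), Itgav at chr2:83724397-83806916 (plus strand) and Itgb1 at chr8:128685654-128733200 (plus strand). No promoter window was found for Thbs1 or Fn1. The 250 bases before the RefSeq start of Spp1 and of Cd44 are shown, as a ligand and a receptor that the results below turn on. They are RefSeq promoter windows of build GRCm38.p6, read 5′ to 3′ in the direction of transcription, at chr5:104434861-104435110 (plus strand) for Spp1 and chr2:102901666-102901915 (minus strand) for Cd44. The RefSeq start of Spp1 differs from the gene start given above. Capitals mark matches, on either strand, to the motifs searched.
Spp1: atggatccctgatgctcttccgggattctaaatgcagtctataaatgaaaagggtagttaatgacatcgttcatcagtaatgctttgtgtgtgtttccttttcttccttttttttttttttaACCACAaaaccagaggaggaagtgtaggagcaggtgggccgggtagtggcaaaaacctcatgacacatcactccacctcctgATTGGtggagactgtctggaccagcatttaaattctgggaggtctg
Cd44: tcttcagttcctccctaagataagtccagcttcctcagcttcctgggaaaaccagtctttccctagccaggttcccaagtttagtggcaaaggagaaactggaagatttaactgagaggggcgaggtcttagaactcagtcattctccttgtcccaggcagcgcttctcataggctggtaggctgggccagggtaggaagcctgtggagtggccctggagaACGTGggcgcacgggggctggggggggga
The Spp1 window held the RUNX motif ACCACA 128 bases before the start and, on the minus strand, the CCAAT motif (read as ATTGG) 46 bases before it. The Cd44 window held the hypoxia-response core ACGTG 29 bases before the start, and the AP-1 motif TGANTCA was in neither window. Among 32851 promoter windows of this length, 14.05% held ACCACA, 33.85% CCAAT, 16.6% ACGTG and 6.75% TGANTCA on either strand. A further RefSeq window of Spp1, at chr5:104435942-104436191, held 0 matches and is not shown. No searched motif overlapped another in the 2 windows shown, and a match of letters is a description, not a site of binding.

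The 3 ligand transcripts were concentrated in myeloid cells, and the 4 receptor transcripts were found in phagocytes, neutrophils, T cells, B cells, NK cells and dendritic cells of every library. Phagocytes held 58.4% of the Spp1 UMIs of AAA_14 and 82.8% of those of AAA_7, against 3.70% in Sham, where neutrophils held 63.0% of only 27 UMIs. For Thbs1 the phagocyte share was 51.7% in AAA_14 and 71.4% in AAA_7, against 1.43% in Sham, where neutrophils held 94.6%. For Fn1 it was 61.2% and 78.9%, against 21.3% in Sham. Fibroblasts, which made up 50 of the cells of AAA_14, 9 of AAA_7 and 3 of Sham, held 24.4% of the Fn1 UMIs of AAA_14, 7.95% of AAA_7 and 59.6% of Sham. 

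**Figure D1:**
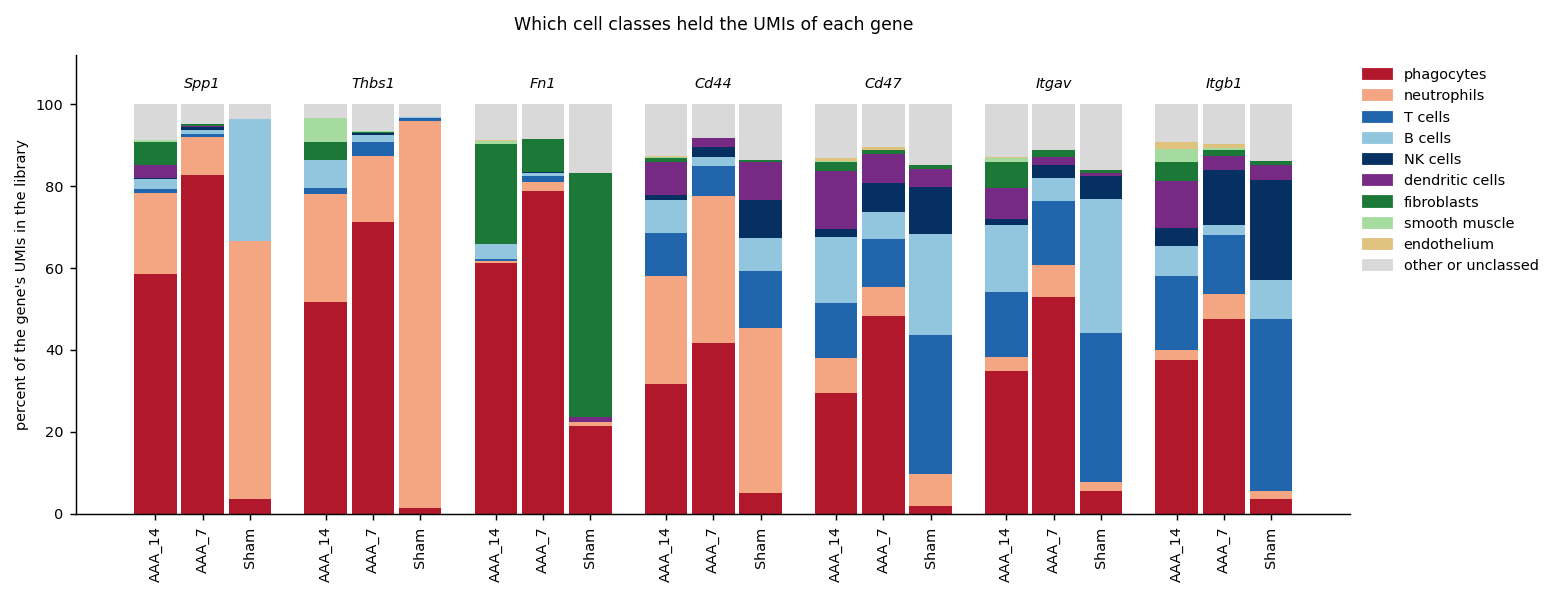
Percent of each gene's UMIs held by each cell class, as stacked bars for AAA_14, AAA_7 and Sham from left to right within a gene. Phagocytes hold 51.7% or more of the 3 ligand transcripts in AAA_14 and AAA_7, and neutrophils hold 94.6% of Thbs1 in Sham.

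Spp1, the osteopontin gene, stood at 139 CPM (interval 133 to 146) in AAA_14 phagocytes and 1080 CPM (1053 to 1108) in AAA_7 phagocytes. It was 7.75-fold lower in AAA_14 (log2 ratio -2.95, interval -3.03 to -2.88). Few cells carried it: 50% of the 1782 Spp1 UMIs of AAA_14 phagocytes were in 8 cells, and 50% of the 6138 of AAA_7 phagocytes were in 4 cells. The single cell with the most held 203 UMIs (11.4%) in AAA_14 and 1533 UMIs (25.0%) in AAA_7. Without that cell in each library the log2 ratio was -2.72. At least 1 Spp1 UMI was found in 14.2% of AAA_14 phagocytes (12.2 to 16.3%, median 10133 UMIs) and 33.7% of AAA_7 phagocytes (30.7 to 36.7%, median 5006 UMIs). In B cells, which should lack the gene, the shares were 2.82% of AAA_14 (median 4652 UMIs) and 7.89% of AAA_7 (median 1873 UMIs). Thinned to 1000 UMIs per cell, the phagocyte shares were 4.02% and 16.2% and the B cell shares 0.524% and 3.10%, so phagocytes lay above the level of B cells in both libraries.

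Thbs1, which encodes a large trimeric protein that activates TGF-beta and restrains vessel growth, was also lower in AAA_14 phagocytes. It stood at 199 CPM (192 to 207) in AAA_14 and 1072 CPM (1045 to 1100) in AAA_7, 5.38-fold lower (log2 ratio -2.43, -2.49 to -2.36). It was carried more broadly than Spp1: 50% of its UMIs were in 22 cells of AAA_14 and 57 cells of AAA_7. A Thbs1 UMI was found in 20.7% of AAA_14 and 46.3% of AAA_7 phagocytes, and in 8.40% and 31.2% after thinning. The thinned shares in B cells were 1.05% and 4.87%.

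Fn1, whose protein is assembled into the fibrils that cells pull on through integrins, did not share this difference. Its level was 470 CPM (458 to 482) in AAA_14 phagocytes and 407 CPM (390 to 424) in AAA_7 phagocytes, a log2 ratio of 0.21 (0.14 to 0.28). That sign was not stable, since the ratio was -0.40 after thinning to 1000 UMIs and -0.21 when the CPM of single cells was averaged. A Fn1 UMI was found in 24.5% of AAA_14 and 30.6% of AAA_7 phagocytes, and in 9.62% and 17.5% after thinning, against 0.899% and 1.99% of B cells. As few as 12 AAA_14 cells held 50% of the Fn1 UMIs, against 24 cells in AAA_7. Fibroblast markers, 7 genes with 7 detected in AAA_14 and 6 in AAA_7 phagocytes (Pdgfra at 0), summed to 51.3 and 32.4 CPM there. Smooth muscle markers summed to 19.6 CPM in AAA_14 and 6.34 CPM in AAA_7 phagocytes, with Myh11 and Cnn1 at 0 in AAA_7. The part of these cells' RNA in the levels of Fn1 and Thbs1 was not tested.

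Among the receptors, Cd44 was at 298 CPM (288 to 307) in AAA_14 and 444 CPM (427 to 462) in AAA_7 phagocytes, a log2 ratio of -0.58. The integrin subunit Itgav was at 39.8 and 56.1 CPM (log2 ratio -0.50) and its partner Itgb1 at 195 and 218 CPM (-0.17). Cd47 was at 416 and 369 CPM (0.17). So 2 of the 7 genes, Spp1 and Thbs1, were at least 2-fold lower in AAA_14 phagocytes and none was at least 2-fold higher. Of 10973 genes with at least 30 UMIs over both libraries, 2.86% were at least 2-fold lower and 5.00% as far the other way, and the median gene had a log2 ratio of 0.10. Since the 7 genes were chosen with such values known, nothing is read from this count. The phagocyte class had another make-up and quality in each library: mitochondrial UMIs were 5.02% in AAA_14 and 1.16% in AAA_7, and 15 hypoxia and glycolysis genes summed to 813 and 1523 CPM. Whether these bear on the ratios was not tested.

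**Figure D2:**
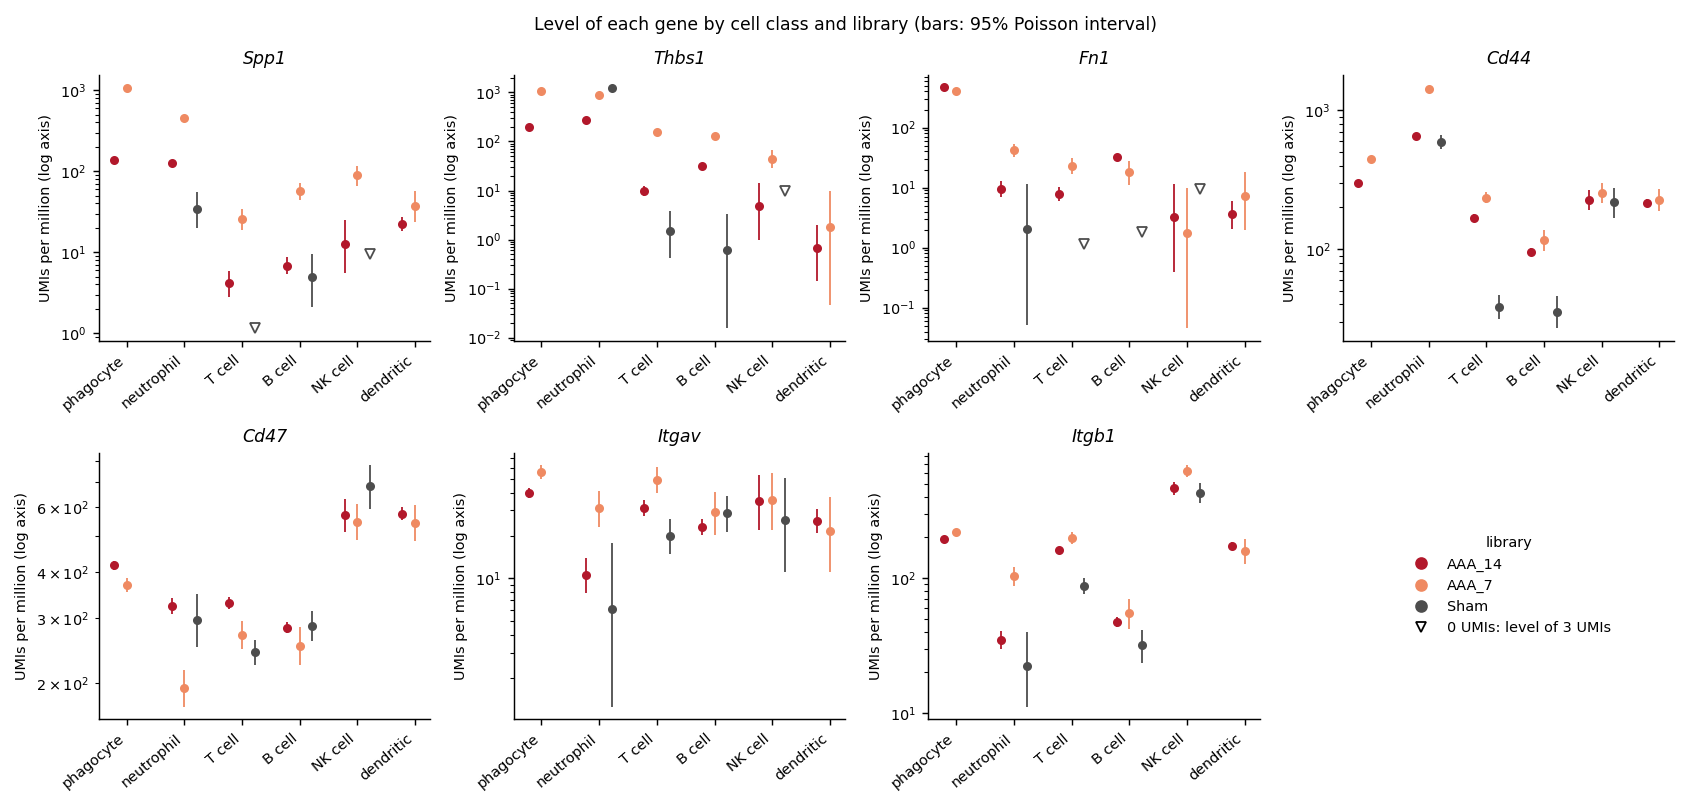
Level of each gene in CPM (log axis) by cell class, with AAA_14, AAA_7 and Sham from left to right and 95% Poisson intervals; open triangles mark 0 UMIs, drawn at the level of 3 UMIs. Spp1 and Thbs1 of AAA_7 phagocytes lie at 1080 and 1072, above 139 and 199 in AAA_14, while Cd47 stays within 194 to 681 in every class drawn.

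The phagocytes were divided further by clusters built without the 7 genes, and each ligand had its own place among them. Most AAA_14 phagocytes were in cluster 4 (42.8%, led by Apoe, C1qa and Mrc1), cluster 11 (18.8%, led by Plac8 and Ly6c2, genes of blood-derived monocytes) and cluster 9 (18.1%, led by C1qb and the class II genes H2-Eb1 and H2-Aa). AAA_7 phagocytes were mostly in cluster 5 (39.1%, led by the cytokine gene Il1b, Tgfbi and Ptgs2) and cluster 4 (30.5%). Clusters 5 and 22 made up 3.997% and 2.17% of AAA_14 phagocytes, against 39.1% and 6.59% of AAA_7 phagocytes.

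Cluster 22, led by Lyz2, the cathepsin genes Ctsb and Ctsd and the galectin gene Lgals3, had the highest Spp1 level in AAA_7 and the highest Fn1 level in both libraries among the 6 clusters compared. Its 25 AAA_14 cells had 308 CPM of Spp1 (263 to 359) and its 64 AAA_7 cells 7078 CPM (6862 to 7299). The AAA_7 cells of this cluster held 66.4% of all Spp1 UMIs of AAA_7 phagocytes, of which 37.6% were in 1 cell, and the AAA_14 cells held 9.20% of those of AAA_14, of which 81.1% were in 1 cell. In AAA_14 Spp1 was highest in cluster 5, at 593 CPM (521 to 672, 40.2% of it in 1 cell), against 728 CPM (689.5 to 769) in AAA_7. Fn1 ran the other way, with 6629 CPM (6412 to 6852) in the AAA_14 cells and 1756 CPM (1649 to 1867) in the AAA_7 cells of cluster 22. The AAA_14 cells were 2.17% of AAA_14 phagocytes and held 58.7% of their Fn1 UMIs. In cluster 22, 11.7% of the AAA_14 and 24.5% of the AAA_7 Fn1 UMIs were in 1 cell. Fn1 was also higher in AAA_14 in clusters 5 (796 and 592 CPM) and 9 (137 and 43.9 CPM). It was lower in AAA_14 in clusters 4 (18.1 and 61.1 CPM) and 11 (593 and 796 CPM, with 43.2% of the AAA_7 UMIs in 1 cell). In cluster 19 the Fn1 intervals overlapped.

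Thbs1 was highest in cluster 5, at 1627 CPM (1507 to 1755) in 46 AAA_14 cells and 2925 CPM (2847 to 3005) in 380 AAA_7 cells. The AAA_7 cells of cluster 5 held 86.4% of the class's Thbs1 UMIs, and 75.5% of them had a Thbs1 UMI. In AAA_14 the largest share, 36.1%, was in the monocyte-led cluster 11, where Thbs1 stood at 446 CPM in AAA_14 and 717 CPM in AAA_7. The same cluster had 593 and 796 CPM of Fn1 but only 53.4 and 39.3 CPM of Spp1. Cluster 9 held 51.1% of the Spp1 UMIs of AAA_14 phagocytes, at 342 CPM in AAA_14 and 246 CPM in AAA_7. Within clusters, then, the Spp1 level was lower in AAA_14 in clusters 22, 5, 4 and 19, the last on 1 UMI against 11. It was higher in AAA_14 in cluster 9, where 22.3% of the AAA_14 and 26.2% of the AAA_7 UMIs were in 1 cell. A Spp1 UMI was found in 32.7% of the AAA_14 and 31.6% of the AAA_7 cells of cluster 9. Thbs1 was lower in AAA_14 in clusters 5, 11, 9, 4 and 19, and in cluster 22 it was at 771 and 641 CPM with overlapping intervals. For Thbs1, cluster 19 rests on 3 UMIs in AAA_14 and 13 in AAA_7, of which 61.5% were in 1 cell. In cluster 11 the AAA_7 level comes from 25 cells, with 26.0% of the UMIs in 1 cell. Cluster 19, led by Pf4, Selenop and Folr2 (genes of resident macrophages), was low in all 3 ligands, with 1.26 and 35.6 CPM of Spp1 in AAA_14 and AAA_7, 3.77 and 42.1 CPM of Thbs1, and 5.02 and 6.47 CPM of Fn1.

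**Figure D3:**
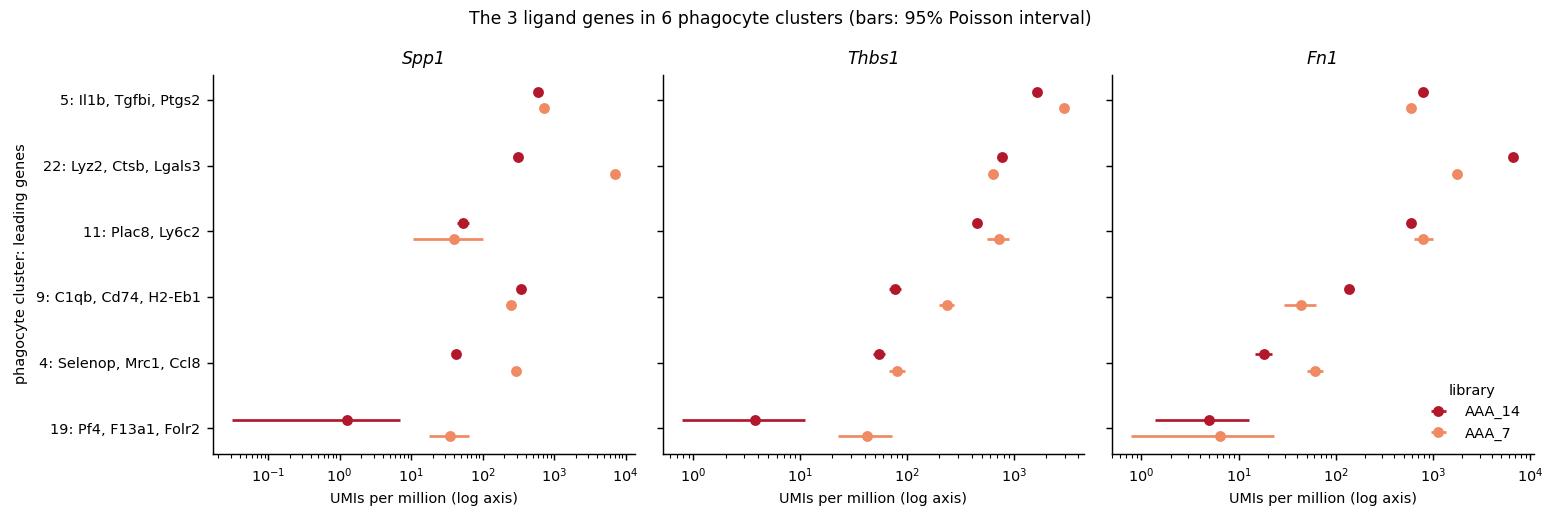
Levels of the 3 ligand genes in CPM (log axis) in 6 phagocyte clusters, with AAA_14 drawn above AAA_7 and 95% Poisson intervals. Fn1 peaks in cluster 22 in both libraries (6629 and 1756), Spp1 peaks there in AAA_7 (7078) but in cluster 5 in AAA_14 (593), and Thbs1 peaks in cluster 5 (1627 and 2925).

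Cell by cell, Fn1 was found more often in phagocytes with a Thbs1 UMI than in those without. Among AAA_14 phagocytes, 46.2% of those with a Thbs1 UMI also had a Fn1 UMI, against 18.8% of those without. Among AAA_7 phagocytes the shares were 48.7% and 14.97%. Thinned to 1000 UMIs they were 30.2% and 7.74% in AAA_14, and 32.0% and 10.95% in AAA_7. Thbs1 was found in 28.8% of AAA_14 phagocytes with Spp1 and 19.3% of those without, and in 52.0% and 43.5% in AAA_7. The intervals of those shares overlapped in AAA_7 and not in AAA_14, and after thinning they overlapped in both libraries. Fn1 was found in 36.8% of AAA_14 phagocytes with Spp1 and 22.5% of those without, and in 39.5% and 26.1% in AAA_7, with intervals apart in both. After thinning they overlapped in AAA_14 (13.04% and 9.48%) and stayed apart in AAA_7, at 26.4% (19.4 to 34.4%) and 15.8% (13.3 to 18.6%). All 3 ligands were found in 20 of 1151 AAA_14 phagocytes (1.74%) and 93 of 971 AAA_7 phagocytes (9.58%), and none of them in 57.8% and 33.2%. After thinning all 3 were found in 0 of 1143 AAA_14 and 19 of 890 AAA_7 phagocytes, and none in 81.6% and 53.5%. Across cells the rank correlation was 0.31 between Thbs1 and Fn1 in AAA_14 and 0.45 in AAA_7 (1151 and 971 cells), and between Spp1 and Thbs1 it was 0.08 and 0.07. Such values share library and depth and are descriptions.

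The genes whose rank pattern over phagocytes was most like each ligand set Spp1 apart, while Thbs1 and Fn1 shared Cd14 in AAA_7. For Spp1 they were AA467197 (0.29), the tetraspanin Cd9 (0.28), Basp1 (0.27), Mmp14 (0.25) and Itgax (0.23) in AAA_14. In AAA_7 they were Gpnmb (0.38), Lhfpl2 (0.27), Trem2 (0.27), Cstb (0.26) and Adam8 (0.26). Gpnmb and Trem2 are known from lipid-laden macrophages. For Thbs1 they were the proteoglycan gene Vcan (0.31), the transglutaminase gene Tgm2 (0.31), S100a11 (0.31), Fn1 (0.31) and Srgn (0.31) in AAA_14. In AAA_7 they were Il1b (0.55), Ptgs2 (0.52), the lipopolysaccharide receptor gene Cd14 (0.52), Clec4e (0.51) and Slc16a3 (0.51). For Fn1 they were S100a4 (0.50), the coagulation factor gene F10 (0.49) and S100a6 (0.49) in AAA_14, and Thbs1 (0.45), S100a6 (0.40) and Cd14 (0.38) in AAA_7. All are values over the cells of 1 library, in which weak correlations are no finding.

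Over 16 combinations of class and library, among 9552 genes, Spp1 was most like Atp6ap1 (Pearson r 0.96), Tlr2 (0.94) and Tmem189 (0.93). Thbs1 was most like the complement receptor gene C5ar1 (0.95), the neutrophil chemokine gene Cxcl2 (0.94) and Pla2g7 (0.93). The nearest to Fn1 were C4b (0.96), C3ar1 (0.94) and the macrophage marker Adgre1 (0.94). Cd44 was nearest to Jdp2 (0.96), Abr (0.96) and Mtmr6 (0.95). Cd47 was nearest to Ikbip (0.91), Dctn3 (0.90) and Gmppb (0.86), Itgav to Clcn4 (0.91), Abl2 (0.90) and Mex3d (0.89), and Itgb1 to the interferon gamma receptor gene Ifngr1 (0.97), 1700025G04Rik (0.94) and Epsti1 (0.94). Points from 1 library share its depth, so no p is attached.

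The surroundings of the 7 genes were read from lists of related genes in phagocytes, beside the 5.00% of all genes at least 2-fold higher and 2.86% at least 2-fold lower in AAA_14. Of 9 other integrin alpha genes with at least 30 UMIs (of 17) and 4 other beta genes (of 7), none was 2-fold higher or lower in AAA_14 than in AAA_7, and Itga5, the partner of Itgb1 in the fibronectin receptor, had a log2 ratio of -0.32. Of 6 measured further matrix ligands (of 19), Mfge8, the bridge from dying cells to alpha v integrins, was lower (-3.14) and Ccn1 higher (1.76). Among 7 measured genes of osteopontin and fibronectin cleavage (of 13), 3 were lower and 2 higher: the elastase gene Mmp12 had a log2 ratio of -3.22 and the membrane protease gene Mmp14 -1.998, whereas Mmp9 had 1.10 and Mmp3, on 34 UMIs, 1.25 (-0.02 to 3.09). The list's median log2 ratio was -0.88. Of 17 measured further receptors and CD47 partners (of 18), 2 were higher, Cd74 (1.25) and Hmmr (1.01), and 2 lower, the syndecan gene Sdc1 (-2.63) and the urokinase receptor gene Plaur (-1.03). For the 18 measured adaptors and kinases of integrins (of 21) 1 was higher, Tln2 (1.74), 1 was lower, Actn1 (-1.27), and the median was 0.08. For 9 measured genes of the CD44 axis (of 12) the counts were 1 higher and 2 lower, and for 8 genes of TGF-beta activation (of 13) 1 higher and 2 lower. Of 15 hypoxia and glycolysis genes 8 were lower, among them Vegfa (-2.81), and none higher, with a median of -1.15, while 15 dissociation and immediate early genes had 2 higher and 1 lower.

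Neutrophils were the one class in which Thbs1 could be set against Sham with a large count, and AAA_14 was lower. Thbs1 stood at 272 CPM (257 to 287) in AAA_14 and 891 CPM (844 to 939) in AAA_7, against 1212 CPM (1117 to 1314) in Sham. It was 4.46-fold lower in AAA_14 than in Sham (log2 ratio -2.16, -2.30 to -2.02, and -2.32 relative to the median gene) and less so in AAA_7 (-0.45, -0.58 to -0.30). A Thbs1 UMI was found in 18.02% of AAA_14, 29.9% of AAA_7 and 42.2% of Sham neutrophils, and after thinning in 10.5%, 23.97% and 31.5%. The 109 Sham neutrophils held 597 Thbs1 UMIs, of which 11.6% were in 1 cell. Markers of platelets, a known source of thrombospondin 1, summed to 6.47 CPM in AAA_14 (6 of 7 detected), 2.60 CPM in AAA_7 (1 of 7) and 0 in Sham (7 of 7 at 0).

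Different clusters held most neutrophils in each library, but AAA_14 was below Sham inside both clusters with more than 20 neutrophils of each. AAA_14 neutrophils were mostly in cluster 6 (47.8%, led by S100a9 and Retnlg, genes of mature neutrophils), AAA_7 neutrophils in cluster 3 (92.99%, led by Cxcl2, Acod1 and Ccl3) and Sham neutrophils in cluster 6 (45.0%) and cluster 13 (40.4%, led by the granule genes Ngp, Lcn2 and Camp). In cluster 6 Thbs1 was at 231 CPM (207 to 258) in AAA_14 and 1651 CPM (1429 to 1897) in Sham. In cluster 13 it was at 371 CPM (341 to 403) in AAA_14 and 1356 CPM (1219 to 1504) in Sham. Cluster 3, which held 173 AAA_14 and 650 AAA_7 but only 2 Sham neutrophils, had 594 CPM in AAA_14 and 973 CPM in AAA_7.

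Spp1, unlike Thbs1, was higher in AAA_14 and AAA_7 than in Sham neutrophils. It was at 127 CPM (117 to 137) in AAA_14 and 451 CPM (418 to 486) in AAA_7, against 34.5 CPM (20.1 to 55.3, on 17 UMIs) in Sham, log2 ratios over Sham of 1.84 (1.18 to 2.67) and 3.67 (3.02 to 4.50). Cluster 3 held 81.4% of the Spp1 UMIs of AAA_14 neutrophils and 92.4% of those of AAA_7 neutrophils, at 863 CPM (789 to 943) in AAA_14 and 529.5 CPM (489 to 572) in AAA_7. In cluster 6 the level was 19.2 CPM in AAA_14 and 24.9 CPM in Sham, and in cluster 13 it was 32.4 and 45.3 CPM, with overlapping intervals. With the mitochondrial limit at 5% the AAA_14 over Sham ratio was 0.86. Phagocyte markers summed to 1350 CPM in AAA_14 (15 of 15 detected) and 1629 CPM in AAA_7 neutrophils (Ace at 0), against 607 CPM in Sham neutrophils, where 7 of 15, among them C1qa and Mrc1, were at 0. Their part in the neutrophil ratios was not tested.

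Cd44, which neutrophils use to bind hyaluronan on vessel walls, was at 656 CPM (634 to 680) in AAA_14 and 1421 CPM (1362 to 1482) in AAA_7, against 595 CPM (529 to 667) in Sham neutrophils. Cd47 was at 324 and 194 CPM, against 296 CPM in Sham, and Itgb1 at 34.9 and 103 CPM, against 22.3 CPM in Sham. Itgav was at 10.6 and 31.2 CPM against 6.09 CPM, and Fn1 at 9.60 and 41.6 CPM against 2.03 CPM. The Sham values of Itgb1, Itgav and Fn1 rest on 11, 3 and 1 UMIs. In all, 2 of the 7 genes (Spp1 and Fn1) were at least 2-fold higher in neutrophils of AAA_14 than of Sham and 1 (Thbs1) was lower; of 7212 genes 16.3% were higher and 3.56% lower. Between AAA_7 and Sham 5 were higher (Spp1, Fn1, Cd44, Itgav and Itgb1) and none lower; of 4833 genes 27.4% were higher and 9.17% lower. Between AAA_14 and AAA_7, 6 were lower (all but Cd47, with a log2 ratio of 0.74) and none higher. Of 7736 genes 12.6% were lower and 10.6% higher. Cluster 3 held 21.95% of AAA_14 and 92.99% of AAA_7 neutrophils. Inside it Spp1 was higher in AAA_14, at 863 CPM against 529.5 CPM in AAA_7. Cd44 was at 1430 CPM (1333 to 1531) in AAA_14 and 1629 CPM (1558 to 1703) in AAA_7 there. Thbs1 stayed lower in AAA_14, at 594 against 973 CPM. The Fn1 ratio of AAA_14 over Sham, 1.67 with an interval of -0.31 to 7.58, was -0.19 with 5 counts added, and that of AAA_7 over Sham, 3.78, was -0.67 with classes from clusters. Likewise Fn1 of AAA_14 over AAA_7, -2.11, was 1.18 with classes from clusters. Itgav of that pair, -1.55, was -0.46 with classes from clusters, -0.72 averaged over cells and -0.85 without the top cell of each library. Cd44 was 1.25 in AAA_7 over Sham and -1.11 in AAA_14 over AAA_7, and 0.82 and -0.86 after thinning. Itgb1 of AAA_7 over Sham was 2.15 (1.33 to 3.24) and Itgav 2.15 (0.72 to 4.68), the second being 0.55 with classes from clusters. The median log2 ratio of all genes was 0.17, 0.35 and -0.04 in these 3 pairs.

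Of the related genes in neutrophils, 14 further receptors were measured in AAA_14 over Sham and 7 were higher by the fitted ratio, 6 with genes at 0 UMIs in Sham set to 3 counts, and 1 was lower; Cd14 had a log2 ratio of 2.09. In AAA_7 over Sham 8 of 10 were higher, beside 16.3% and 27.4% of all genes in these pairs. Phagocytes express Cd14 too, as they do Itgax and Tgfbi below. Sums of phagocyte markers in neutrophils are given above, and their part in these ratios was not tested. Of 6 measured alpha genes in AAA_14 over Sham 1 was higher, Itgax (1.93, on 2 Sham UMIs), and the alpha M gene Itgam and the beta 2 gene Itgb2, which pair to form the main neutrophil integrin, had ratios of -0.33 and -0.40. Tgfbi, a matrix ligand with an RGD motif, had 1.93. Among the cleavage genes Mmp9 had 0.16 and the transglutaminase gene Tgm2 1.91. Between AAA_14 and AAA_7 neutrophils 7 of 16 measured further receptors and 4 of 6 cleavage genes were lower, with 1 and none higher.

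**Figure D4:**
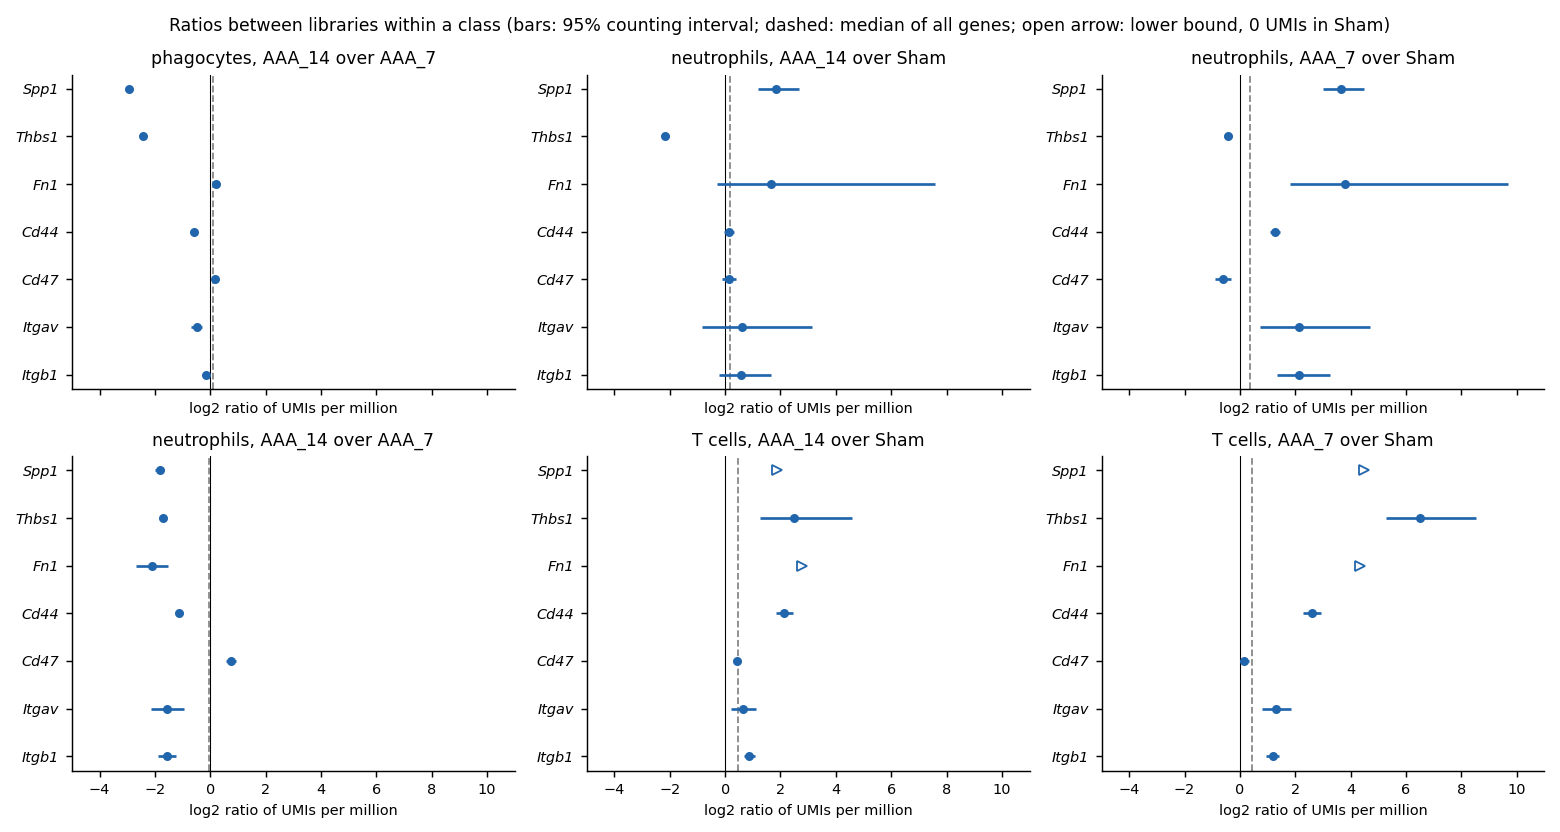
Log2 ratios of CPM for the 7 genes in phagocytes, neutrophils and T cells, with 95% counting intervals. The dashed line is the median of all genes with at least 30 UMIs. Open arrows are genes with 0 UMIs in Sham, drawn at the ratio with Sham set to 3 counts, without counting error. Spp1 (-2.95) and Thbs1 (-2.43) stand apart on the left in phagocytes, Thbs1 (-2.16) in AAA_14 over Sham neutrophils, and Cd44 lies at 2.12 and 2.60 in T cells.

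In T cells the receptors carried most of the counts, and among the receptors Cd44 differed most. In AAA_7 T cells, however, the ligand Thbs1 had 291 UMIs, more than the 93 of the receptor Itgav. Cd44, a classical mark of T cells that have met antigen, was at 168 CPM (159 to 178) in AAA_14 and 235 CPM (214 to 258) in AAA_7, against 38.5 CPM (31.4 to 46.8) in Sham. The log2 ratios over Sham were 2.12 (1.83 to 2.43) and 2.60 (2.29 to 2.93), or 1.64 and 2.16 above the median gene, which itself was at 0.48 and 0.45. A Cd44 UMI was found in 46.6% of AAA_14, 39.9% of AAA_7 and 16.0% of Sham T cells, and in 14.1%, 18.5% and 3.15% after thinning. In T cells whose cluster was a T cell cluster it was at 165 CPM in AAA_14 and 203 CPM in AAA_7, against 39.9 CPM in Sham. Mitochondrial UMIs were 6.89% in AAA_14, 1.78% in AAA_7 and 8.14% in Sham T cells, and with a limit of 5% only 1 Sham T cell was left, so the ratio has no value there.

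Itgb1 was at 161 CPM (152 to 170) in AAA_14 and 199 CPM (180 to 221) in AAA_7, against 87.7 CPM (76.7 to 99.8) in Sham, with ratios over Sham of 0.87 and 1.18, or 0.39 and 0.74 above the median gene. Itgav was at 31.2 CPM (27.3 to 35.5) and 49.2 CPM (39.7 to 60.3), against 19.8 CPM (14.8 to 26.0). Cd47 was at 329 and 270 CPM, against 242 CPM, ratios of 0.44 and 0.16 that become -0.04 and -0.29 against the median gene, so no direction is given for it. Together with the ligands, 4 of the 7 genes (Spp1, Thbs1, Fn1 and Cd44) were at least 2-fold higher in AAA_14 than in Sham T cells and none lower; of 10094 genes 24.7% were higher and 1.62% lower. Between AAA_7 and Sham 6 were higher, all but Cd47, and none lower; of 8278 genes 23.3% were higher and 2.65% lower. Of these 6, the AAA_7 over Sham ratios of Itgav (1.30) and Itgb1 fell under 2-fold with TMM factors, to 0.86 and 0.74, and Itgav also when averaged over cells (0.98).

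The T cell clusters separate what the class sum joins. Sham T cells were mostly in cluster 1 (73.7%, led by Lef1 and Tcf7, genes of naive T cells), which held 46.2% of AAA_14 and 37.55% of AAA_7 T cells. In cluster 1 Cd44 was at 32.9 CPM (26.5 to 40.5) in AAA_14 and 42.1 CPM (26.7 to 63.2) in AAA_7, against 26.1 CPM (18.7 to 35.6) in Sham, with overlapping intervals. In cluster 7, led by the activation genes Icos and Ctla4, it was at 262 CPM (238 to 287) and 332 CPM (277 to 395), against 89.4 CPM (52.1 to 143) in Sham. Cluster 12, led by Ccl5 and Nkg7 of cytotoxic cells, had 141.5 CPM (115 to 173) and 208 CPM (163 to 262), against 68.9 CPM (38.6 to 114). The dividing cells of cluster 24 had 175 CPM (152 to 202) and 183 CPM (140 to 236), against 43.9 CPM (26.8 to 67.8). Cluster 18, led by Cxcr6, Rora and gamma-delta receptor genes, had the highest level, 468 CPM in AAA_14 and 510 CPM in AAA_7, and only 2 Sham T cells.

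Itgb1 behaved otherwise inside these clusters. In cluster 7 it was at 240.5 CPM (218 to 265) in AAA_14 and 384 CPM (325 to 451) in AAA_7, against 237 CPM (173 to 317) in Sham. In cluster 12 it was at 140 and 197 CPM, against 147 CPM, and in cluster 1 at 31.45 and 58.6 CPM, against 26.8 CPM. The levels of AAA_14 and Sham overlapped in all 3 of these clusters, while in cluster 24 AAA_14 was at 356 CPM (322 to 393), AAA_7 at 214 CPM (167 to 270) and Sham at 230 CPM (188 to 279). Levels of a cluster in Sham rest on 20 to 328 cells.

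**Figure D5:**
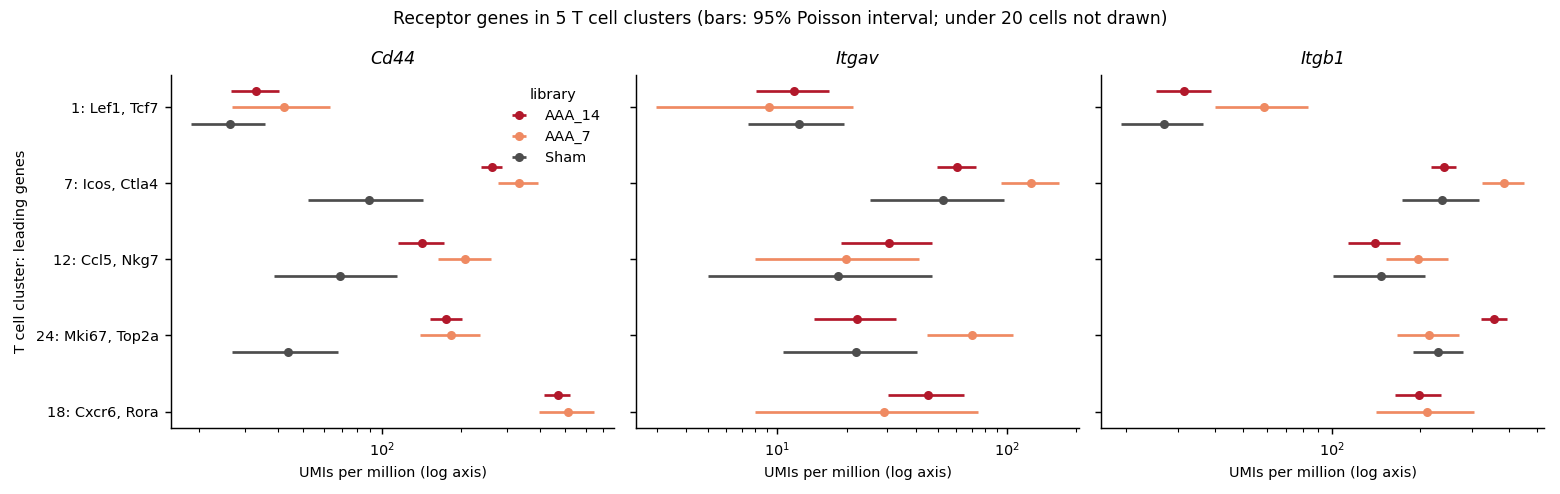
Levels of Cd44, Itgav and Itgb1 in CPM (log axis) in 5 T cell clusters, with AAA_14 above AAA_7 above Sham and 95% Poisson intervals. For Cd44 the AAA_14 and AAA_7 points lie right of Sham in clusters 7, 12 and 24 (262 and 332 against 89.4 in cluster 7), while in cluster 1 the 3 intervals overlap.

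Ligand UMIs in T and B cells were few, and most of those of Thbs1 in AAA_14 and AAA_7 sat in cells whose cluster was of another class. For Spp1, T cell clusters held 71.0% of the UMIs of AAA_14 T cells and 91.7% of those of AAA_7 T cells. Spp1 and Fn1 had 31 and 58 UMIs in AAA_14 T cells and 48 and 44 in AAA_7 T cells, and 0 in Sham T cells. With Sham set to 3 counts, or 1.14 CPM, Spp1 was 3.64-fold and Fn1 6.82-fold higher in AAA_14 than Sham T cells. The intervals of their log2 ratios began at 1.48 and 2.42. Thbs1 was at 9.68 and 154 CPM, against 1.53 CPM on 4 UMIs in Sham, but 53.3% of the AAA_7 UMIs were in 1 cell and 45.8% of the AAA_14 UMIs in 1 cell. In T cells whose cluster was a T cell cluster, 24 of the 72 Thbs1 UMIs of AAA_14 and 72 of the 291 of AAA_7 remained, at 3.49 and 41.2 CPM. In B cells, 334 Thbs1 UMIs of AAA_14 and 151 of AAA_7 stood against 1 of Sham, and in B cells within B cell clusters 29 and 51 remained, against 1. In those clusters the intervals of T and B cells overlapped for all 3 ligands in AAA_14 and AAA_7. B cells there had 3.24 and 50.6 CPM of Thbs1, 3.799 and 31.7 CPM of Spp1 and 4.58 and 9.92 CPM of Fn1 in AAA_14 and AAA_7, and T cells 3.20 and 25.2 CPM of Spp1 and 5.39 and 13.2 CPM of Fn1. Dendritic cells of AAA_7 had 1.79 CPM of Thbs1 on 1 UMI (0.0454 to 9.99), below T cells and B cells of that library. NK cells had 8 Spp1 UMIs in AAA_14 and 50 in AAA_7, against 0 in Sham. In NK cells within NK cell clusters Spp1 was at 14.7 CPM (6.33 to 28.9) in AAA_14 and 94.0 CPM (69.3 to 125) in AAA_7. Both intervals lay above those of T and B cells in their own clusters. For Thbs1, NK cells had 3 and 25 UMIs, and for Fn1 2 and 1. Whether free RNA gave the lymphocyte UMIs was not tested.

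Cd44 was higher in B cells too. It was at 95.1 CPM (89.3 to 101.2) in AAA_14 and 116 CPM (97.0 to 137) in AAA_7, against 35.4 CPM (26.9 to 45.7) in Sham, with log2 ratios over Sham of 1.42 (1.04 to 1.83) and 1.70 (1.26 to 2.18). Phagocyte markers summed to 736 CPM in AAA_14 and 758 CPM in AAA_7 B cells, against 224 CPM in Sham (8 of 15 at 0), and neutrophil markers to 981 and 1279 CPM, against 194 CPM. B cells within B cell clusters held 64.4% of the Cd44 UMIs of AAA_14 and 54.8% of those of AAA_7, against 65.5% in Sham. In them Cd44 was at 71.1 CPM (65.6 to 76.8) and 73.4 CPM (57.6 to 92.1), against 31.0 CPM (21.9 to 42.5), log2 ratios over Sham of 1.18 and 1.24. Cd47 (282 and 252 CPM, against 285 CPM), Itgav (23.0 and 29.1 CPM, against 28.7 CPM) and Itgb1 (47.3 and 54.8 CPM, against 31.7 CPM) were within 2-fold. With the ligand genes, 3 of the 7 (Thbs1, Fn1 and Cd44) were at least 2-fold higher in AAA_14 than in Sham B cells and none lower. Of 10285 genes 21.2% were higher and 3.82% lower. B cells within B cell clusters held only 41 of the 341 Fn1 UMIs of AAA_14 B cells. Fn1 was at 4.58 CPM (3.29 to 6.21) there, against 0 UMIs (up to 3.01 CPM) in Sham. For Spp1 these clusters held 34 of 71 UMIs in AAA_14 and 32 of 66 in AAA_7. Between AAA_7 and Sham 3 of 6 with enough UMIs (Spp1, Thbs1 and Cd44) were higher and none lower; of 6970 genes 13.5% were higher and 4.18% lower.

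Receptor levels in NK cells and dendritic cells differed by less than 2-fold between the libraries compared. In NK cells Itgb1 was at 462 CPM (410 to 518) in AAA_14 and 620 CPM (557 to 689) in AAA_7, against 429 CPM (359 to 508) in Sham, the highest Itgb1 levels of the 6 classes in each library. Cd47 was at 569 and 547 CPM, against 681 CPM, and Cd44 at 227 and 255 CPM, against 218 CPM, with overlapping intervals between AAA_14 and Sham. The log2 ratio of Cd47 over Sham was -0.26 (-0.508 to -0.008) in AAA_14 and -0.32 (-0.57 to -0.06) in AAA_7. Dendritic cells had 214 CPM of Cd44 in AAA_14 and 228 CPM in AAA_7, 575 and 543 CPM of Cd47 and 173 and 160 CPM of Itgb1, each with overlapping intervals. Cluster 16, led by Cst3, Naaa and H2-Ab1, held 84.7% of the 98 Spp1 UMIs of AAA_14 dendritic cells and 80.95% of the 21 of AAA_7, at 37.25 and 53.8 CPM. Both libraries had no more than 7.17 CPM of Fn1 and 1.79 CPM of Thbs1 in this class.

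Lists of integrin and adaptor genes were counted in T cells as well, where the share of all genes past 2-fold upward was 24.7% for AAA_14 over Sham and 23.3% for AAA_7 over Sham. Of 9 measured integrin alpha genes 6 were at least 2-fold higher and none lower, with a median log2 ratio of 1.28, and of 4 beta genes 2 were higher, with a median of 1.09, beside the median of 0.48 over all genes. Itgb7, whose protein pairs with alpha 4 for homing, had a ratio of 2.05 and Itgal, the alpha chain of LFA-1, 1.31. Of 15 measured adaptors and kinases 7 were higher, among them Pxn (2.17) and Ilk (1.36), and none lower, with a median of 0.85. In AAA_7 over Sham T cells 4 of 7 alpha genes, 2 of 3 beta genes and 5 of 13 adaptors and kinases were higher and none lower. Both comparisons use the same Sham T cells. Of the CD44 axis, 1 of 5 measured genes was higher in AAA_14, Mmp9, a neutrophil gene, on 2 Sham UMIs, whereas the CD44 linker genes Ezr and Msn had 0.66 and 0.46. Neutrophil markers summed to 559 CPM in AAA_14, 743 CPM in AAA_7 and 145 CPM in Sham T cells. Phagocyte markers summed to 817, 1179 and 223.5 CPM there, with 5 of 15 at 0 in Sham. The part of either in these ratios was not tested.

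Outside the immune classes, a few cells that passed the bead selection had high ligand levels. The 50 fibroblasts of AAA_14 had 2434 CPM of Fn1 (2338 to 2534), the 9 of AAA_7 1289 CPM and the 3 of Sham 2033 CPM (1523 to 2659). The 22 smooth muscle cells of AAA_14 had 1060 CPM of Thbs1 (940 to 1191), with 37.1% of the UMIs in 1 cell, and 749 CPM of Itgb1. These cells are too few to compare between libraries, and a CD45 selection does not sample them evenly.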

How the data were processed

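The deposited files hold raw UMI counts per gene and barcode for 3 libraries, and per the file headers the software was Cell Ranger 6.1.2. Seurat and the build mm10 appear in the submitters' processing notes. For the annotation and read filters, no source used here gives them. Barcodes with at least 200 genes and at most 10% mitochondrial UMIs were kept. The 7 genes, the lists of related genes and the comparisons were chosen with earlier results of these data known.

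Each cell was classed by its highest mean over markers of log UMIs per 10000, each marker scaled to its 99th percentile, with at least 3 markers detected. A cell whose second class reached over 0.8 of the first was left unclassed, a rule set after the data were seen. Scrublet (scanpy 1.11.5) called 0 of 5286 cells of AAA_14, 0 of 3229 of AAA_7 and 2 of 1235 of Sham, so no doublets were removed, and the highest scores were removed in an alternative. Clusters were built without the 7 genes, from 2000 variable genes, 30 components and 15 neighbours (leidenalg 0.10.2, resolution 1).

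For each class in each library the counts were added up and scaled to that class's UMI total. Ratios carry exact conditional binomial 95% intervals, shares exact Clopper-Pearson intervals. The smallest library had 13341534 UMIs and the largest 67243700. UMIs are counted molecules, and the intervals leave out variation between cells, libraries and animals. A 0 was set to 3 counts per library. Genes in list counts had at least 30 UMIs over both libraries, and list genes were named, per list and pair, from the up to 4 with the largest ratio in size. For each of the 7 genes the 3 most alike genes over classes and libraries were named, and for Spp1 and Thbs1 the 5 most alike over phagocytes. The genes most like Fn1 over phagocytes were added after the values were seen. Thinning drew 1000 UMIs per cell and left out 47 cells of AAA_14, 251 of AAA_7 and 12 of Sham with fewer. The ratio script was tested on simulated data. Alternatives were other mitochondrial and gene limits, doublet removal, classes from clusters, thinning, TMM factors (edgeR 4.0.16), 5 counts added, averaging over cells and leaving out the top cell. Keeping cells whose cluster class equalled their own was an alternative chosen after seeing the data. Gene positions came from GENCODE vM21 by Ensembl identifier, and promoter windows from RefSeq.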

Additional observations from a re-analysis of the deposited data

Results flagged for a closer look

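Thbs1 went opposite ways in different classes for the same pair of libraries. In AAA_14 over Sham its log2 ratio was -2.16 in neutrophils, 2.51 (interval 1.25 to 4.58) in T cells and 5.14 (3.23 to 11.03) in B cells. The difference between classes was not tested, since each group is 1 library. The Sham values behind the T and B cell ratios are 4 and 1 UMIs. In cells whose cluster was of their own class, the log2 ratio of Thbs1 was 0.93 in T cells and 1.43 in B cells.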

How the results depend on the processing

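Of 50 log2 ratios of the 7 genes, each with a UMI in both libraries, 27 were past 2-fold. Of these, 24 kept their sign and 16 stayed past 2-fold under every alternative run. The ratios over Sham of Spp1 and Fn1 in T cells and of Fn1 in B cells, with 0 UMIs in Sham, are not among them and had no alternatives run. Between AAA_14 and AAA_7 phagocytes, Spp1 (-2.95) was -2.57 with a mitochondrial limit of 5%, -2.72 thinned, -3.05 with TMM factors, -2.54 averaged over cells and -2.72 without the top cell. Thbs1 (-2.43) was -2.78 at 5%, -2.50 at 20%, -2.54 thinned, -2.52 with TMM and -2.53 averaged over cells. Fn1 (0.21) was 0.38 at 5%, 0.14 with no limit, -0.40 thinned, 0.11 with TMM and -0.21 averaged over cells. Thbs1 of AAA_14 over Sham neutrophils (-2.16) was -2.33 at 5% and -2.36 with TMM. Cd44 of AAA_14 over Sham T cells (2.12) was 1.58 at 20%, 1.59 with no limit and 1.65 with TMM. Fn1 in neutrophils reversed to -0.19 with 5 counts added (AAA_14 over Sham) and, with classes from clusters, to -0.67 in AAA_7 over Sham and to 1.18 between AAA_14 and AAA_7; the cause was not tested. TMM moved all ratios by -0.47 in AAA_14 over Sham T cells and by less in size in the other pairs. Of 480 alternatives of list counts, 89 differed by over 1.5 times. The 5% limit was not run for T and B cells over Sham, where 1 and 0 Sham cells were left. No paired analysis was possible because each group had 1 library. With 1 pooled library per group, depth limits only the counting error, and few Sham cells limit the phagocyte and neutrophil values.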
